A study of Danio rerio with 18 samples.

Results

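The step of regeneration described here is the change in transcript levels of the caudal fin between 5 and 3 days post amputation (dpa) in zebrafish that received vehicle. Its members are 6 of the 18 Affymetrix arrays of the series, 3 labelled vehicle at 5 dpa and 3 labelled vehicle at 3 dpa, chosen by day and exposure in the labels and paired by replicate letter. All fish were adult males of the AB strain, kept at 27 °C. Vehicle was phosphatidylcholine liposomes, injected on the day of amputation. The other arrays were vehicle at 1 dpa and fins of fish injected with liposomes carrying TCDD (2,3,7,8-tetrachlorodibenzo-p-dioxin) to 50 ng/g, at 1, 3 and 5 dpa. They entered the shared estimate of spread and 2 comparisons of the step, with the TCDD-exposed fin and with the preceding vehicle step. Every array held RNA from 10 pooled fish, and the tissue was the regenerate with a short stretch of the stump, so that errors describe the spread between pools of fish. What a letter stands for is not stated. If pools of one letter share a source or a handling day, p-values measure only the spread that remains after the letter is accounted for.

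An amputated zebrafish fin first closes the wound with epidermis, then forms a blastema of dividing mesenchyme under that epidermis, and then grows out while cells near the stump differentiate. Outgrowing tissue lays down actinotrichia, stiff fibrils of collagen and actinodin at the fin margin, and behind them osteoblasts deposit the bone matrix of new ray segments. Day 3 lies when the blastema has formed, and day 5 lies within outgrowth. FGF, Wnt, BMP, hedgehog, Notch and retinoic acid signals are known to pattern this growth.

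Levels are given as log2(intensity + 1), on which a difference of 1 is a doubling, and the differences of dim transcripts are understated on it. Differences are vehicle 5 dpa minus vehicle 3 dpa with a standard error (SE). Because letters A, B and C occur on both days, each difference is the mean of 3 letter-matched differences. A transcript "rose" or "fell" where limma's adjusted p was under 0.05. Since whole tissue was measured, a lower level from fewer cells of a type and one from less RNA per cell cannot be told apart.

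The median intensity of the 6 arrays ran between 78.5 and 82.6. A control for RNA integrity, the log2 difference between the 3′ and 5′ probe sets of GAPDH, was 1.94, 2.26 and 1.38 on the 5 dpa arrays A, B and C, against 1.85, 2.24 and 3.38 on the 3 dpa arrays. By this control the 3 dpa array C stood apart, and counts of calls are given below also without it. A second control, the same difference for the actin gene acta1, read 2.07, 1.87 and 2.24 at 5 dpa. At 3 dpa it read 2.18, 1.64 and 1.63, so that array C was the lowest of the 6 there. Defining markers of fin tissue were bright on both days. The epidermal keratin krt5 averaged 14.33 ± 0.08 at 5 dpa and 14.29 ± 0.12 at 3 dpa, and the bone and dermal collagen col1a1a averaged 14.47 ± 0.09 and 14.04 ± 0.27 (SD, n = 3 each). Skeletal muscle and liver markers were dim, with summed levels of 4.64 to 5.01 at 5 dpa and 4.50 to 4.96 at 3 dpa for muscle, and 5.58 to 5.65 and 5.39 to 5.53 for liver. Of the bone-forming markers sp7, an osteoblast transcription factor, stayed dim, at 4.07 ± 0.25 at 5 dpa and 3.99 ± 0.16 at 3 dpa. None of the 4 defining lymphocyte markers was matched by symbol to a probe set, so they could not be analysed here.

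Of 15502 probe sets tested, 322 passed (2.08%), 104 of them higher (0.671%) and 218 lower (1.41%) at 5 dpa. Represented by 1 probe set a gene, 60 of 8793 genes rose (0.682%) and 174 fell (1.98%). The median difference over all genes was -0.0015. Among the genes that passed, the median rise was 0.86 and the median fall was -0.63. Rises were fewer than falls in this fit and larger in the median, and the balance of counts rested on single arrays and on the fit. Without the 3 dpa array C 15 probe sets were higher and 14 lower. Without both arrays of letter A there were 10 and 4, and with the block on the 6 vehicle arrays alone 6 and 1. Groups of 3 arrays without overlap between the days were found for 870 genes higher (9.89%) and 1140 lower (13%) at 5 dpa. The number of calls depended on the fit. It was 53 without the replicate block, the letter term, and 7 with the block on the 6 vehicle arrays alone. Without the 3 dpa array C it was 29, beside 27 and 32 without the 3 dpa arrays A and B. Leaving out a 5 dpa array gave 45 to 436.

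The fibrils of the fin margin gave the largest named rise. The actinodins are structural proteins of actinotrichia, known from fishes. Actinodin and3 stood at 8.37, 7.43 and 6.87 on the 5 dpa arrays A, B and C, against 4.57, 4.05 and 4.98 on the 3 dpa arrays. Every 5 dpa array was thus above every 3 dpa array, and the level at 3 dpa was low. The rise was 3.03 ± 0.41 (SE), an 8.15-fold difference on this scale (limma, adjusted p = 0.0095). Its adjusted p was 0.051 without the 3 dpa array A.

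Actinodin and2 was already bright at 3 dpa. It read 12.98, 12.83 and 13.54 at 5 dpa, against 11.86, 11.54 and 12.46 at 3 dpa. The days did not overlap, and the rise was 1.16 ± 0.26 (adjusted p = 0.046). It lost its call without any 1 of the 6 arrays, with an adjusted p of up to 0.17, and its p was 0.20 without the block. The third member, and1, read 13.61, 13.58 and 13.62 at 5 dpa against 13.18, 12.79 and 13.37 at 3 dpa. Its difference of 0.49 ± 0.38 did not pass (adjusted p = 0.51), although the days did not overlap. So 2 of the 3 actinodins rose (66.7%, beside 0.682% of all genes), and without the 3 dpa array C the count was 1.

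Among enzymes and glycoproteins of the matrix, single genes passed. The lysyl oxidase loxa, which crosslinks collagen, read 10.27, 10.28 and 10.87 at 5 dpa against 8.14, 7.77 and 9.12 at 3 dpa. The highest 3 dpa array, C, lay below all 5 dpa arrays. The rise was 2.13 ± 0.48, or 4.37-fold (adjusted p = 0.044), and it lost its call without any 1 of the 6 arrays (adjusted p up to 0.18). It was the only one of 11 measured collagen processing enzymes to pass (9.09%, beside 2.66% of all genes), and their median difference was 0.06. Prolyl hydroxylase p4ha1b, which hydroxylates procollagen, differed by -0.0039 ± 0.28 (adjusted p = 0.995).

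Thrombospondin thbs4b, a matrix glycoprotein of tendon and muscle attachments, read 11.82, 12.33 and 12.01 at 5 dpa, against 10.72, 10.27 and 10.91 at 3 dpa. All 5 dpa arrays were higher, the rise was 1.42 ± 0.20 (adjusted p = 0.011), and it was called without each of the 6 arrays in turn. Hyaluronan synthase has2, which makes the hyaluronan of early wound matrix, went the other way. It read 3.55, 3.10 and 3.74 at 5 dpa against 5.37, 6.09 and 5.28 at 3 dpa. The groups did not overlap, though the transcript was dim on all 6 arrays. The fall was -2.12 ± 0.28 (adjusted p = 0.0095) and was called without each array in turn. These were the 2 calls among 24 wound matrix glycoproteins (8.33%, beside 2.66% of all genes), whose median difference was 0.08. The hyaluronan link protein gene hapln1a, a member of the list, did not pass by its brightest probe set (-0.46, adjusted p = 0.65). A dimmer one fell by 1.48 ± 0.18 (adjusted p = 0.0073), at 5.04 ± 0.22 at 5 dpa and 6.52 ± 0.26 at 3 dpa without overlap. Tenascin tnn (1.19 ± 0.43, adjusted p = 0.16) and fibronectin fn1b (-0.36, adjusted p = 0.21) did not pass.

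Other secreted or crosslinking proteins rose. Spondin spon2b read 10.50, 10.23 and 9.87 at 5 dpa against 9.25, 8.37 and 8.78 at 3 dpa, a rise of 1.40 ± 0.22 (adjusted p = 0.014). Transglutaminase tgm2b, which crosslinks proteins, read 8.41, 7.97 and 8.19 at 5 dpa against 7.20, 6.45 and 7.28 at 3 dpa, a rise of 1.22 ± 0.25 (adjusted p = 0.033). The days did not overlap for either gene. The olfactomedin olfm2a, a secreted glycoprotein, rose by 2.31 ± 0.35 (adjusted p = 0.013) and was dim at 3 dpa. The exostosin ext1c, of the family that polymerises heparan sulfate, rose by 1.13 ± 0.25 (adjusted p = 0.044).

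Collagens themselves did not pass. Of 12 fibrillar and sheet collagens none rose or fell, and 9 were higher in value, with a median difference of 0.28. The largest, col6a3, read 12.61, 12.23 and 12.44 at 5 dpa against 12.04, 10.78 and 11.74 at 3 dpa, a difference of 0.91 ± 0.22 (adjusted p = 0.059). Both chains of collagen I were near the top of the intensity range on both days. For col1a1a the difference was 0.43 ± 0.12 (adjusted p = 0.091), and for col1a2 it was 0.40 ± 0.14 (adjusted p = 0.16). None of 4 small leucine-rich proteoglycans passed either. Biglycan bgnb, which binds collagen, differed by 1.43 ± 0.34 (adjusted p = 0.058) and decorin dcn by 0.03 ± 0.18 (adjusted p = 0.93). Among 9 metalloproteinases and inhibitors none passed. The inhibitor timp2b read 7.34, 7.82 and 8.39 at 5 dpa against 9.03, 9.19 and 9.26 at 3 dpa, a difference of -1.31 ± 0.37 (adjusted p = 0.092).

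Bone genes were mostly higher in value, and 2 of 16 passed (12.5%, beside 2.66% of all genes). Osteopontin spp1, a phosphoprotein of mineralised matrix, read 10.07, 9.94 and 10.27 at 5 dpa against 8.80, 7.58 and 8.13 at 3 dpa. The 5 dpa arrays lay close together and above all 3 dpa arrays. The rise was 1.93 ± 0.33, or 3.81-fold (adjusted p = 0.021), and its p was 0.15 without the block. The osteoblast transcription factor runx2a read 12.67, 12.39 and 12.49 at 5 dpa against 11.61, 10.89 and 12.06 at 3 dpa, a rise of 0.99 ± 0.21 (adjusted p = 0.036). The days did not overlap. A second, dim probe set of runx2a differed by -0.02 (adjusted p = 0.96). Over the list 15 of 16 members were higher in value, with a median difference of 0.45 against -0.0015 over all genes, and without the 3 dpa array C 1 member was called.

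The remaining bone genes gave differences that did not pass. Phosphate-regulating phex differed by 0.94 ± 0.28 (adjusted p = 0.10), and its 3 other probe sets by 1.01, 1.27 and 1.43 (adjusted p 0.054, 0.21 and 0.16). The collagens of the mineralising ray, col10a1a and col10a1b, differed by 0.39 (adjusted p = 0.60) and 0.91 (adjusted p = 0.39). Osteonectin sparc, which binds calcium and collagen, was among the brightest transcripts and differed by 0.29 ± 0.08 (adjusted p = 0.069). Summed over the 5 measured bone-forming markers the level was 14.45 to 14.53 at 5 dpa and 13.73 to 14.22 at 3 dpa. For 8 markers of fibroblast and blastema mesenchyme it was 15.95 to 16.14 at 5 dpa and 15.27 to 15.74 at 3 dpa. Of these 8, 5 were higher and 3 lower in value, with a median difference of 0.21, and 1 of them, and2, passed. The part of a change in tissue make-up in these rises was not tested. No cartilage gene of 13 passed. The largest were matn4 (1.61 ± 0.51, adjusted p = 0.12) and col11a2 (1.24 ± 0.35, adjusted p = 0.088), and the cartilage collagen col2a1a stayed dim, at 2.72 at 5 dpa and 2.90 at 3 dpa.

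**Figure D1:**
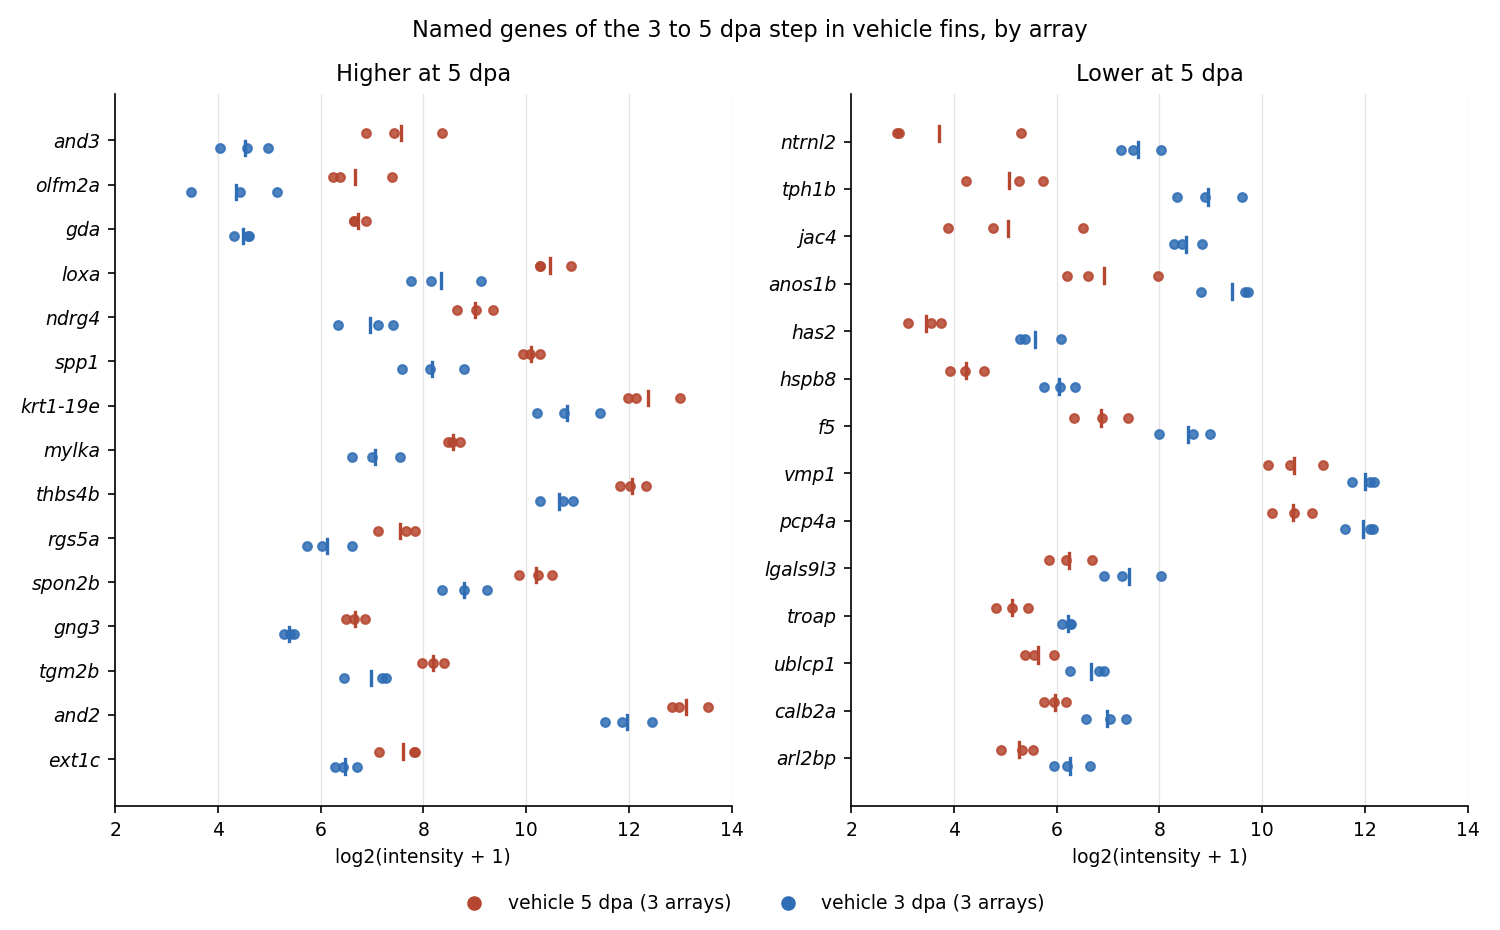
Level of each named gene in log2(intensity + 1) on the horizontal axis, with the 3 vehicle 5 dpa arrays as red points above the 3 vehicle 3 dpa arrays as blue points and a tick at each mean. The left panel holds the 15 named rises, and3 with the largest difference (3.03), and the right panel the 14 named falls, ntrnl2 with the largest (-3.88).

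The 14 named falls included the 3 largest differences among named genes. Tryptophan hydroxylase tph1b, the rate-limiting enzyme of serotonin synthesis, read 5.72, 4.22 and 5.27 at 5 dpa against 9.61, 8.88 and 8.34 at 3 dpa. The groups were far apart on every array. The fall was -3.87 ± 0.40, a 14.6-fold difference (adjusted p = 0.0029), and it was called without each array in turn. A second probe set of tph1b differed by -2.09 (adjusted p = 0.051). Anosmin anos1b, a secreted matrix protein that acts in axon guidance and FGF signalling, read 6.61, 6.19 and 7.97 at 5 dpa against 9.67, 8.81 and 9.73 at 3 dpa. Its 5 dpa array C was the highest of its day and still below all 3 dpa arrays. The fall was -2.48 ± 0.26, or 5.57-fold (adjusted p = 0.0029), again called without each array in turn.

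In ntrnl2 and jac4 the 3 arrays of 5 dpa were uneven. Gene ntrnl2 read 2.89, 2.94 and 5.30 at 5 dpa against 7.24, 8.04 and 7.48 at 3 dpa, a fall of -3.88 ± 0.76 (adjusted p = 0.030). Gene jac4 read 4.77, 3.88 and 6.51 at 5 dpa against 8.45, 8.82 and 8.28 at 3 dpa, a fall of -3.46 ± 0.66 (adjusted p = 0.029). In both, array C was the highest of the 5 dpa arrays, and both lost their call without 5 of the 6 arrays (adjusted p up to 0.13 and 0.12).

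Falls of smaller size were found for genes of stress, clotting and calcium binding. The small heat shock protein hspb8 read 4.22, 3.93 and 4.59 at 5 dpa against 6.06, 5.74 and 6.35 at 3 dpa, a fall of -1.81 ± 0.19 (adjusted p = 0.0029). Coagulation factor f5 fell by 1.68 ± 0.27 on the log2 scale (adjusted p = 0.015), and vmp1, a membrane protein of autophagy, fell by 1.39 ± 0.19 (adjusted p = 0.0095). Arrays of the days did not overlap for any of them, as the choice of named falls required. The calmodulin-binding pcp4a averaged 10.60 ± 0.39 at 5 dpa and 11.95 ± 0.30 at 3 dpa (SD, n = 3 each), a fall of -1.36 ± 0.20 (adjusted p = 0.012). The calcium-binding calretinin calb2a (-1.02), the galectin lgals9l3 (-1.17), the spindle-associated troap (-1.09), the phosphatase ublcp1 (-1.03) and the Arl2-binding arl2bp (-1.01) also fell. Their adjusted p lay between 0.030 and 0.036. A second probe set of troap differed by 0.28 (adjusted p = 0.52), so that the sets of that gene disagreed in sign.

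The other named rises were mostly enzymes and signalling proteins. Ndrg4, of a family of hydrolase-like proteins, read 9.03, 9.35 and 8.65 at 5 dpa against 7.42, 7.12 and 6.33 at 3 dpa. All 5 dpa arrays were higher. The rise of ndrg4 was 2.05 ± 0.24 (adjusted p = 0.0063), its second probe set rose by 1.91 (adjusted p = 0.0063), and it was called without each array in turn. Guanine deaminase gda, a purine-degrading enzyme, read 6.88, 6.65 and 6.64 at 5 dpa against 4.60, 4.31 and 4.58 at 3 dpa, a rise of 2.23 ± 0.35 (adjusted p = 0.014). Its second probe set differed by 0.91 (adjusted p = 0.073). Myosin light chain kinase mylka, which activates smooth muscle and non-muscle myosin, rose by 1.53 ± 0.32 (adjusted p = 0.037) and its second probe set by 1.37 (adjusted p = 0.042). The G protein regulator rgs5a, expressed in pericytes of mammals, rose by 1.42 ± 0.21 (adjusted p = 0.012). The G protein subunit gng3 rose by 1.28 ± 0.28 (adjusted p = 0.042), while its second probe set differed by -0.03 (adjusted p = 0.91).

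Of the 29 named rises and falls, 15 passed without the block, 26 with a pseudocount of 16, 26 after quantile normalization and 29 after median centring. Those called without each of the 6 arrays in turn were 7, namely ndrg4, thbs4b, tph1b, anos1b, has2, hspb8 and vmp1. The 15 that passed without the block were these 7 and and3, olfm2a, gda, rgs5a, tgm2b, f5, ublcp1 and arl2bp. With the block on the 6 vehicle arrays alone, gda, loxa, krt1-19e, and2 and tph1b passed, each at an adjusted p of 0.046. Of the 7 above only tph1b did so, and hspb8 (0.053), ndrg4 (0.058), anos1b (0.097), vmp1 (0.14), has2 (0.14) and thbs4b (0.14) did not. With the block on the 9 vehicle arrays none of the 29 passed, with a smallest adjusted p of 0.052 (gda, krt1-19e and tph1b). Of all 51 named genes that passed, list members included, 16 did so without the block, the last being ldha. The list members that did not pass without the block included runx2a (adjusted p = 0.096), fgf24 (0.33), tgfbr2b (0.105) and aldh1a2 (0.21).

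Lists of the growth signals that pattern the fin are set beside the 2.66% of all genes that passed. In the FGF pathway 1 of 22 genes rose (4.55%) and none fell. The ligand fgf24 read 6.65, 6.33 and 6.06 at 5 dpa against 5.47, 5.60 and 4.97 at 3 dpa. The days did not overlap, and the rise was 1.00 ± 0.18 (adjusted p = 0.025). The receptor fgfr4 (0.75 ± 0.23, adjusted p = 0.12), the receptor fgfr3 (0.56 ± 0.22, adjusted p = 0.20) and the feedback inhibitor spry4 (0.55, adjusted p = 0.25) did not pass. The list's median difference was 0.13.

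In the BMP and TGF-beta pathway 2 of 39 genes rose and 1 fell (7.69% called, beside 2.66% of all genes). The TGF-beta receptor tgfbr2b read 10.28, 10.30 and 10.00 at 5 dpa against 9.37, 9.50 and 9.16 at 3 dpa. Arrays within a day differed little, and the rise was 0.85 ± 0.14 (adjusted p = 0.018). Its second probe set rose by 1.16 (adjusted p = 0.029). The connective tissue growth factor ccn2a, a TGF-beta target, rose by 0.90 ± 0.19 (adjusted p = 0.036), and the Smad co-repressor skib fell by 0.72 ± 0.14 (adjusted p = 0.030). Array values of skib overlapped between the days, since letters differed in level on both. The BMP antagonists nog1 (0.64 ± 0.15, adjusted p = 0.054) and nog3 (0.68, adjusted p = 0.055) lay just outside the threshold. All 3 calls were lost without the 3 dpa array C, as were those in the FGF, retinoic acid and epidermal lists.

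Retinoic acid genes gave 1 rise and 2 falls among 23 (13% called, beside 2.66% of all genes). The carotenoid-cleaving enzyme bco1, which makes retinal, rose by 0.88 ± 0.17 (adjusted p = 0.029). The retinal dehydrogenase aldh1a2, which makes retinoic acid in the blastema, read 7.23, 7.16 and 7.52 at 5 dpa against 8.32, 8.12 and 8.27 at 3 dpa. All 5 dpa arrays were lower, and the fall was -0.94 ± 0.20 (adjusted p = 0.040). The binding protein crabp2b fell by 0.85 ± 0.16 (adjusted p = 0.026). The plasma retinol carrier rbp4 differed by 1.22 ± 0.28 (adjusted p = 0.052), and the retinoic acid-degrading cyp26b1 by 0.22 (adjusted p = 0.39).

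None passed among 35 Wnt, 15 hedgehog, 20 Notch and 25 hox and dlx genes. Their median differences were 0.02, 0.04, 0.06 and 0.11. The values nearest to a call were those of the Notch ligand jag1a (-1.02 ± 0.24, adjusted p = 0.056) and the Notch modifier lfng (-0.78 ± 0.19, adjusted p = 0.059). The Wnt effector lef1 differed by -0.46 ± 0.14 (adjusted p = 0.11). The blastema list of 22 genes held 1 call (4.55%, beside 2.66% of all genes), the fall of aldh1a2. The homeobox gene msx1b, a blastema marker, read 10.24, 10.21 and 10.21 at 5 dpa against 10.58, 10.60 and 10.70 at 3 dpa. Its days did not overlap, and its difference of -0.41 ± 0.14 did not pass (adjusted p = 0.16).

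Proliferation genes were lower in value with no call. Of 75 DNA replication and mitosis genes 72 were lower in value at 5 dpa and 3 higher, with a median of -0.28, and none passed. Under quantile normalization and median centring the median was -0.27 and -0.25. The mitotic cyclin ccnb1 averaged 8.13 at 5 dpa and 8.92 at 3 dpa, a difference of -0.79 (adjusted p = 0.16). The replication factor subunit rpa3 had the smallest adjusted p, 0.065, with a difference of -0.49 ± 0.12. Days without overlap were found for 23 of the 75, all lower, beside 13% of all genes.

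Protein folding and secretion genes held 7 falls and no rise among 73. They were hspb8, the translocon protein tram1 (-0.56), the chaperone hspa14 (-0.56), the mitochondrial chaperonin hspe1 (-0.63), the endoplasmic reticulum chaperone dnajb11 (-0.71), the retrieval receptor kdelr2a (-0.41) and the coat protein sec23a (-0.39). Second probe sets of tram1 (-0.27, adjusted p = 0.38) and kdelr2a (-0.19, adjusted p = 0.71) did not pass. The share of the 73 genes called was 9.59% beside 2.66% of all genes, and 63 of the 73 were lower in value, with a median of -0.22. Without the 3 dpa array C 1 was called, hspb8. Median centring left 6 falls and quantile normalization 5.

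Respiratory chain genes held 3 falls and no rise among 84 (3.57% called, beside 2.66% of all genes), with a median of -0.16. They were atp5md (-0.40), cox6c (-0.27) and ndufb6 (-0.34). None of the 84 was called without the 3 dpa array C or after median centring. A second, dim probe set of ndufb6 differed by 0.20 (adjusted p = 0.40) without overlap between the days, so that the sets of that gene disagreed in sign. Among 31 glycolysis genes lactate dehydrogenase ldha fell by 0.82 ± 0.17 (adjusted p = 0.035). Among 26 sterol and lipid genes the desaturase fads2 fell by 1.49 ± 0.27 (adjusted p = 0.026), with overlapping days. None of 76 ribosomal protein genes passed, with a median of -0.04.

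**Figure D2:**
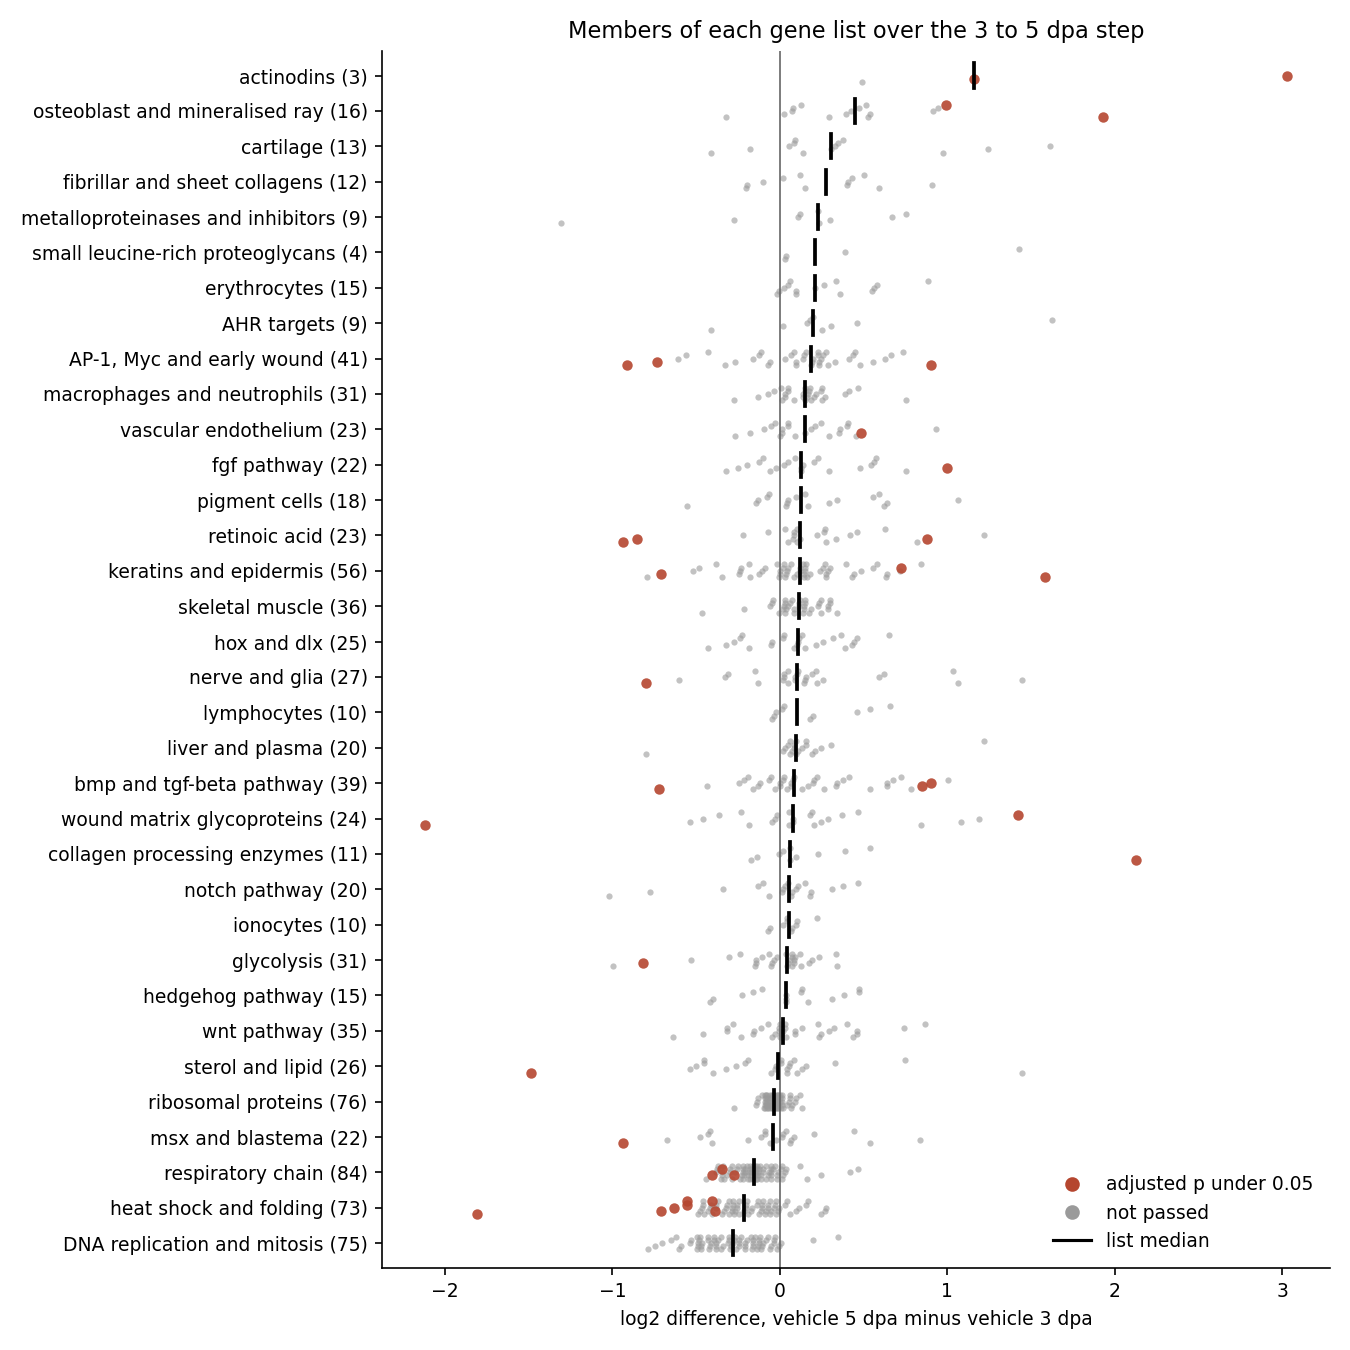
Log2 difference, vehicle 5 dpa minus vehicle 3 dpa, of every measured member of 34 gene lists, 1 list a row with its number of members. Red points passed at an adjusted p under 0.05, grey points did not, and the black bar is the list's median, 1.16 for actinodins at the top and -0.28 for DNA replication and mitosis at the bottom.

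Wound response genes gave 1 rise and 2 falls among 41 (7.32% called, beside 2.66% of all genes), with a median of 0.19. Besides ccn2a, the cytokine inhibitor socs3b read 8.41, 8.86 and 9.48 at 5 dpa against 9.87, 9.49 and 10.13 at 3 dpa, a fall of -0.91 ± 0.17 (adjusted p = 0.029). The growth regulator myca fell by 0.73 ± 0.16 (adjusted p = 0.043). None of the 3 calls held without the 3 dpa array C. No macrophage and neutrophil gene of 31 passed. The cytoskeletal arpc1b was the nearest, with a difference of 0.25 ± 0.07 (adjusted p = 0.091), and the list's median was 0.15.

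In the epidermis 2 of 56 genes rose and 1 fell (5.36% called, beside 2.66% of all genes), with a median of 0.12. The type I keratin krt1-19e averaged 12.37 ± 0.55 at 5 dpa and 10.79 ± 0.62 at 3 dpa (SD, n = 3 each). Letter A was the highest and C the lowest on both days. The rise was 1.58 ± 0.36 (adjusted p = 0.047), and it lost its call without any 1 of the 6 arrays (adjusted p up to 0.19). Its second probe set differed by 2.46 (adjusted p = 0.057). The tight junction protein cldn1 rose by 0.73 ± 0.13 (adjusted p = 0.026), and the desmosomal plakophilin pkp1b fell by 0.71 ± 0.15 (adjusted p = 0.036). Epidermal markers summed to 15.86 to 16.01 at 5 dpa and 15.67 to 15.87 at 3 dpa, and their part in these calls was not tested.

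Lists of other cells held 2 calls, 4.35% of the vascular and 3.7% of the nerve and glia list, beside 2.66% of all genes. The vascular list had 1 rise among 23, mrc1a (0.48 ± 0.11, adjusted p = 0.042), a dim transcript at 3.56 ± 0.22 at 5 dpa and 3.07 ± 0.17 at 3 dpa. The nerve and glia list had 1 fall among 27, the tubulin tubb5, which is not restricted to nerve. It read 9.83, 9.79 and 9.90 at 5 dpa against 10.86, 10.38 and 10.69 at 3 dpa, a fall of -0.80 ± 0.11 (adjusted p = 0.011), and its second probe set differed by -0.43 (adjusted p = 0.25). No gene passed among 18 pigment, 10 ionocyte, 36 skeletal muscle, 15 erythrocyte, 20 liver and plasma or 10 lymphocyte genes, the last list holding polr1g, which entered through an older symbol and is no lymphocyte marker. The melanin enzyme dct was the nearest of them by adjusted p after rbp4, with a difference of 1.06 ± 0.25 (adjusted p = 0.055). The 3 measured erythrocyte markers summed to 12.22 to 12.35 at 5 dpa and 11.24 to 11.97 at 3 dpa.

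The step was then set against the preceding one, vehicle 3 dpa minus vehicle 1 dpa, to ask which transcripts changed pace. Both steps use the 3 dpa vehicle arrays, so their values are not independent. The 1 dpa arrays carry letters B, D and E, so that the earlier difference is a fitted one, adjusted for letter. Letter E is on 1 array only, so its letter term takes up that array, which adds nothing to the fitted difference. The earlier step and its test against the later one thus rest on the 1 dpa arrays B and D. The GAPDH differences of these arrays were 3.03 and 1.52, beside 3.38 on the vehicle 3 dpa array C. The part of RNA quality in the earlier step was not tested. The 1 dpa means given below are over all 3 arrays. The later step had 322 calls and the earlier one 941 (6.07%), 560 higher (3.61%) and 381 lower (2.46%). A test of the difference between the steps called 222 probe sets (1.43%), 24 with a higher and 198 with a lower value in the later step. Counted by gene, 155 passed (1.76%). Of the 144 with a lower value, 137 had been called rises in the earlier step, and 27 were also called falls in the later one. A high value at 3 dpa raises the earlier step and lowers the later one. These overlaps thus follow in part from the shared arrays, and nothing is read from them.

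Matrix and bone genes of the early rise had lower values in the later step. For and2 the later step was 1.16 and the earlier one 8.17 (difference -7.01 ± 0.50, adjusted p = 9.0e-05). For and1 the later step was 0.49 and the earlier one 6.33 (difference -5.84 ± 0.73, adjusted p = 0.0028). The matrix protein gene enam and the osteoblast membrane protein ifitm5 had later steps of 0.42 and 0.54 and earlier ones of 7.27 and 6.24. The collagen col10a1a followed, with 0.39 and 5.55 (adjusted p = 0.0047). In these genes most of the climb came before 3 dpa. The level of and3 averaged 3.98, 4.53 and 7.56 at 1, 3 and 5 dpa. Its later step of 3.03 exceeded its earlier one of 0.73 in value, and this difference did not pass (adjusted p = 0.22).

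Some genes peaked at 3 dpa in the vehicle fin. The level of pcp4a averaged 8.43, 11.95 and 10.60 at 1, 3 and 5 dpa, with a difference between the steps of -5.45 ± 0.38 (adjusted p = 9.0e-05). For has2 the means were 4.39, 5.58 and 3.47, and for hspb8 they were 4.81, 6.05 and 4.24. Their differences between the steps were -3.72 ± 0.54 (adjusted p = 0.0061) and -2.99 ± 0.35 (adjusted p = 0.0025). The opposite course, a trough at 3 dpa, was seen in gda, with means of 7.94, 4.50 and 6.73 and a difference of 5.60 ± 0.66 (adjusted p = 0.0025). Growth protein gap43 and amino acid decarboxylase ddc also had higher values in the later step. Their later steps were 0.03 and 0.06 and their earlier ones -2.02 and -2.08, so the difference lay in an earlier fall that did not go on. A second, dim probe set of ddc had an earlier step of 0.05 and a difference between the steps of -0.15 (adjusted p = 0.77). For the second probe set of gda this difference was 1.76 and did not pass (adjusted p = 0.092).

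**Figure D3:**
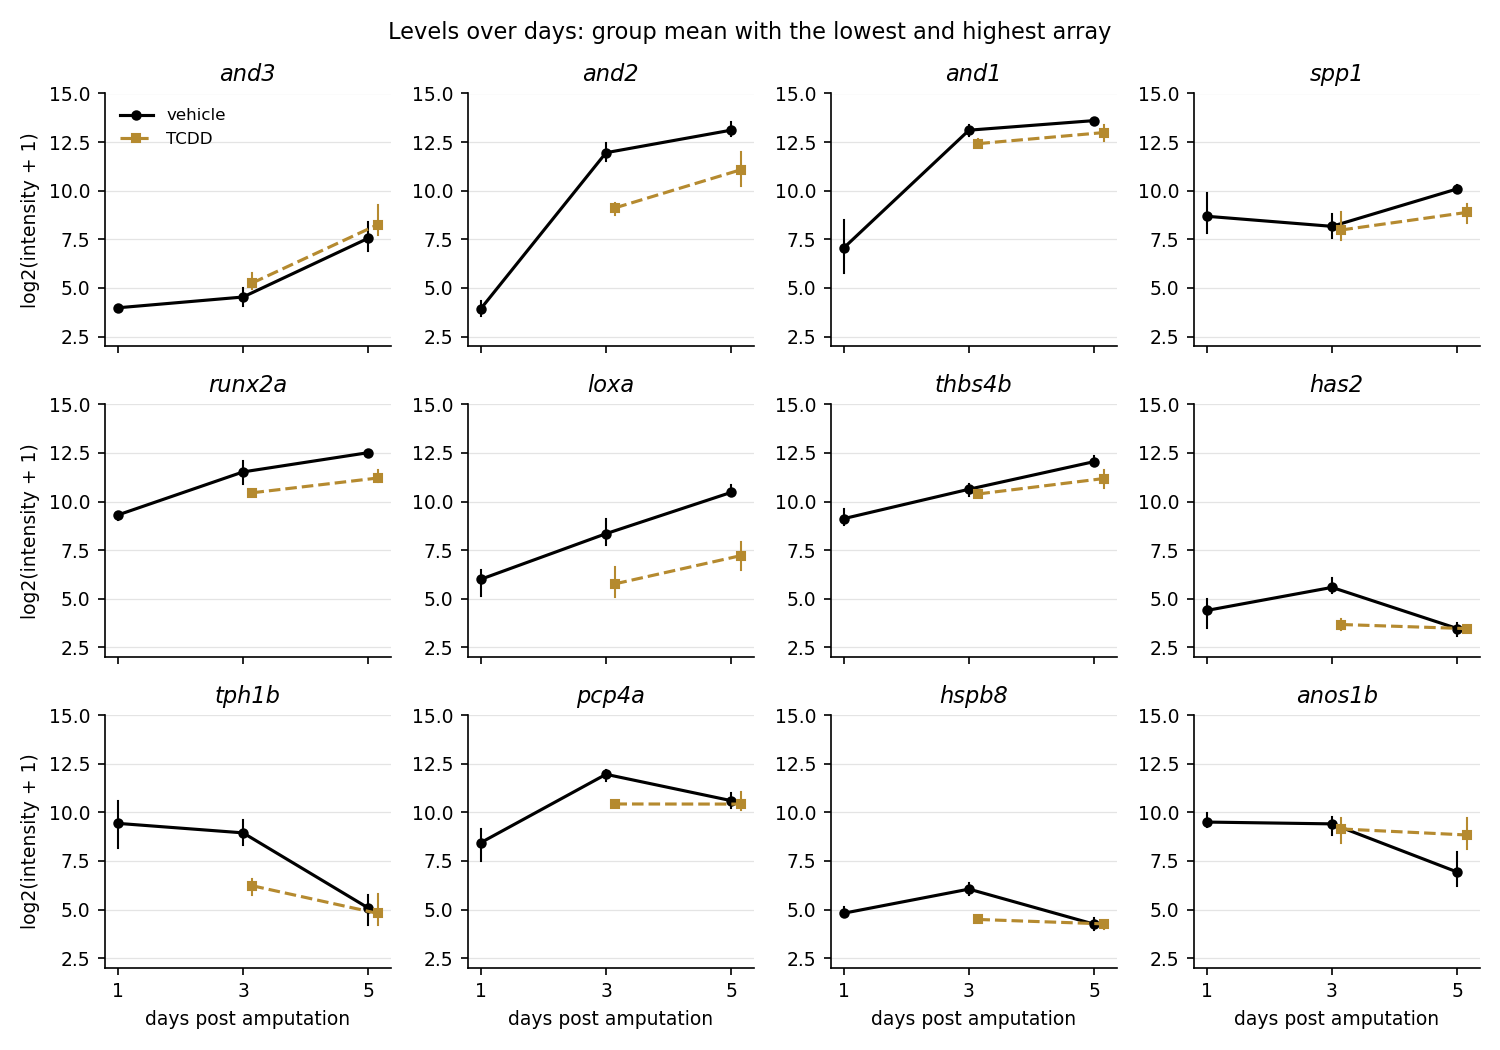
Mean level in log2(intensity + 1) of 12 genes at 1, 3 and 5 dpa in vehicle fins (black circles) and at 3 and 5 dpa in TCDD-exposed fins (ochre squares, set slightly to the right), with lines from the lowest to the highest of 3 arrays. In vehicle fins and3 climbed after 3 dpa, and1 and and2 mainly before it, and has2, hspb8 and pcp4a were highest at 3 dpa.

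The step was also compared with the same interval in the TCDD-exposed fin, whose groups have no array in common with it. TCDD is a ligand of the aryl hydrocarbon receptor. The TCDD arrays carry letters A, B and C at 3 dpa and A, B and D at 5 dpa, so their step is also adjusted for letter. In vehicle fins 322 probe sets passed, and in TCDD-exposed fins 1 did (0.00645%), with 1244 at an unadjusted p under 0.05. The GAPDH difference of the TCDD 3 dpa array C was 4.06, above the 3.38 of the vehicle 3 dpa array C. Without that TCDD array no probe set passed in the TCDD step, and 1312 had an unadjusted p under 0.05. The part of RNA quality in these counts was not tested. A difference in counts is not a test of the difference between the steps. That test called 1 probe set of 15502 (0.00645%), with 1994 at an unadjusted p under 0.05. It called the same 1 without the TCDD 3 dpa array C and 0 without the array C of both exposures at 3 dpa, with 1901 and 1777 at an unadjusted p under 0.05.

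That probe set, Dr.16054.1.S1_at, has no gene symbol and was singled out after its values were seen. It read 9.88, 10.70 and 10.65 at 5 dpa in vehicle fins, against 4.14, 4.67 and 4.25 at 3 dpa. All 5 dpa arrays were far above the others, and the rise of 6.06 ± 0.25 (adjusted p = 3.58e-07) was the largest on the array. At 1 dpa it had read 4.09 to 4.34. In TCDD-exposed fins it averaged 6.54 ± 0.79 at 5 dpa and 4.08 ± 0.15 at 3 dpa (SD, n = 3 each), a step of 2.46 ± 0.27 (adjusted p = 0.018, and 0.086 without the TCDD 3 dpa array C). The vehicle step exceeded the TCDD step by 3.60 ± 0.36 (adjusted p = 0.0083, and 0.038 without that array).

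For the named genes the difference between exposures did not pass, with a smallest adjusted p of 0.11. The 15 rises had a median of 1.53 in vehicle and 0.70 in TCDD-exposed fins, and the 14 falls had medians of -1.54 and -0.20. The step was smaller in TCDD-exposed fins for 14 of the rises and all 14 falls. Because these genes were chosen for large vehicle steps, a smaller value elsewhere follows in part from the choice. Among the named rises and falls and3 had the closest values, 3.03 in vehicle and 2.88 in TCDD-exposed fins. For and2 the vehicle step was 1.16 and the TCDD step 1.87. The falls of anos1b (-2.48 in vehicle, 0.03 in TCDD-exposed fins), ntrnl2 (-3.88 and 0.59) and jac4 (-3.46 and 0.43) had no matching fall in the letter-adjusted TCDD step. Unadjusted, anos1b was lower in value in TCDD-exposed fins, with means of 8.83 at 5 dpa and 9.14 at 3 dpa. The unadjusted means of ntrnl2 were 8.20 and 8.13, and those of jac4 were 9.15 and 9.10. At 3 dpa has2 averaged 5.58 in vehicle and 3.67 in TCDD-exposed fins, and the averages at 5 dpa were 3.47 in vehicle and 3.46 in TCDD-exposed fins.

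**Figure D4:**
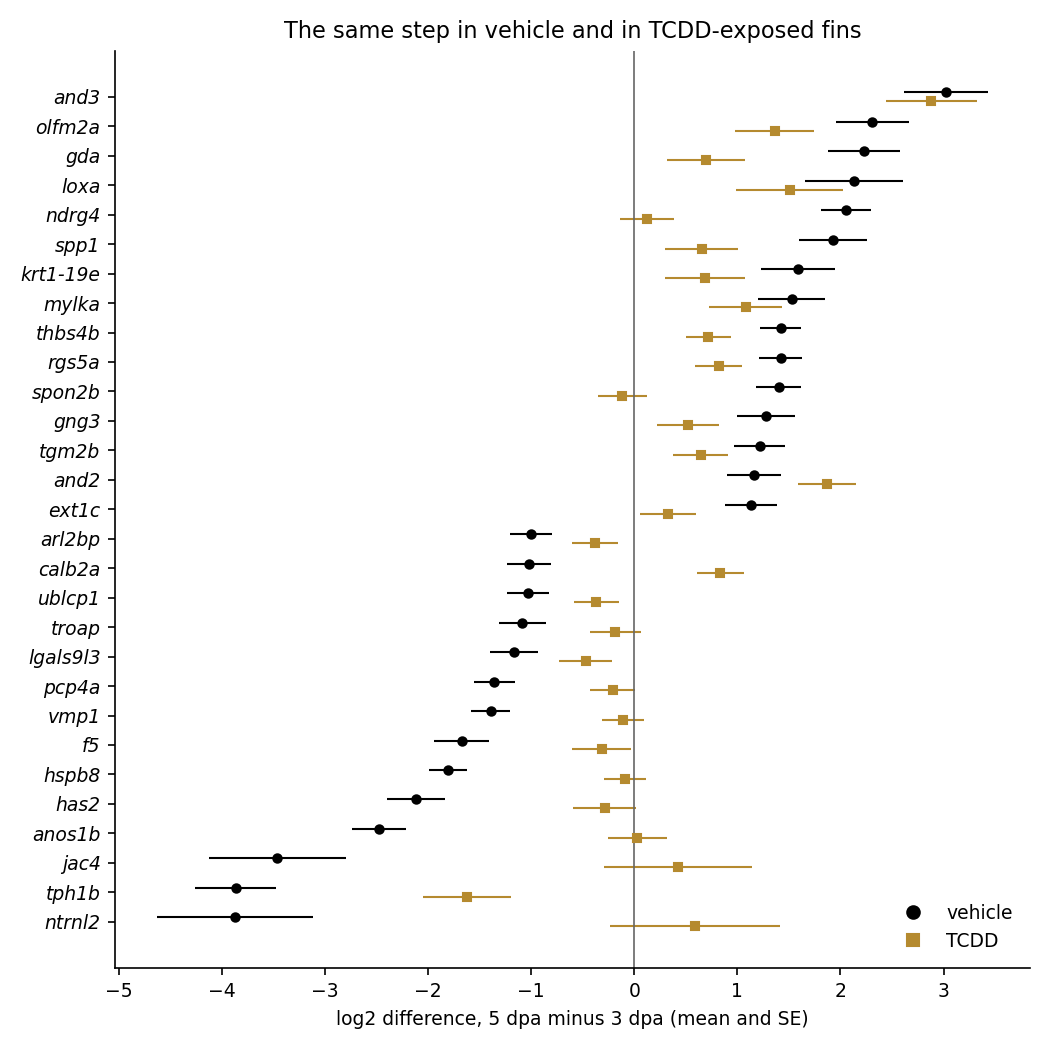
Log2 difference, 5 dpa minus 3 dpa, of the 29 named genes in vehicle fins (black circles) and in TCDD-exposed fins (ochre squares below them), with SE from the limma fit. Vehicle steps run between -3.88 and 3.03, and the TCDD steps lie nearer to 0 for all but and2.

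The list medians of the exposures lay near each other for some groups and apart for others. Actinodins had a median step of 1.16 in vehicle and 1.87 in TCDD-exposed fins, and DNA replication and mitosis genes -0.28 and -0.43. Bone genes had 0.45 and 0.22, cartilage genes 0.31 and -0.06, and collagens 0.28 and 0.06. The 5 measured bone-forming markers, a part of the bone list, went the other way, with 0.43 in vehicle and 0.74 in TCDD-exposed fins. Differences between these medians were not tested. In vehicle fins none of the 9 measured genes of the AHR target list passed. As drawn up, that list named the receptor gene ahr2 and the cartilage list's sox9b beside enzymes that the receptor induces. Its member bmal1a entered through an older symbol and is no target of the receptor. The detoxifying enzyme cyp1a, induced by that receptor, read 8.88, 10.13 and 6.06 at 5 dpa and 7.78, 8.03 and 4.39 at 3 dpa in vehicle fins. Letter C was the lowest on both days, and the difference of 1.62 ± 0.85 did not pass (adjusted p = 0.33).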

How the data were processed

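Total RNA of regenerating zebrafish fin was hybridised to 18 arrays in 6 groups of 3. The files hold the authors' GCRMA output, named in the submitters' processing notes, as linear intensity for each probe set. How GCRMA was set up is not given in the sources used for this work, and scanner files were not used here. Of 15617 probe sets 115 controls were left out. The platform's gene table supplied symbols, brought up to date with Entrez IDs in a RefSeq table: 10795 probe sets had 1 symbol (10711 found in that table), 135 several and 4572 none. Each of 8793 genes was represented by its brightest probe set.

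limma 3.58.1 in R 4.3.3 fitted log2(intensity + 1) over all 18 arrays with 6 group means and the letter as a block (lmFit, contrasts.fit, eBayes with a trend), leaving 8 residual degrees of freedom. p-values were two-sided and adjusted by Benjamini and Hochberg over 15502 probe sets. The fit was tested on simulated data with known changes and errors drawn independently for each array. That run does not speak to how the calls on the real arrays depend on single arrays. Figures used matplotlib 3.10.9 in Python 3.11.15.

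The letters pair the arrays: over 7751 probe sets, deviations of same-letter arrays correlated at 0.27 to 0.49, and those of other letters at -0.35 to -0.01. The letters come from the labels.

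Named were up to 15 rises and 15 falls that passed, differed by at least 1 on the log2 scale without overlap and averaged at least 5 on the higher day, plus up to 4 members of each of 34 gene lists by adjusted p, the cell type markers, and 5 genes a direction for each other contrast. Genes known by a clone or locus name were only counted: 7 rose and 6 fell. List members beyond these were named as examples after their values were seen. The members and lists were chosen with earlier results of these data known. Alternatives were another block, arrays, pseudocount, scaling, filter or prior. Sequences and genome coordinates were not used here. The number of arrays limits the precision.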

Additional observations from a re-analysis of the deposited data

Results flagged for a closer look

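The vehicle and TCDD steps from 3 to 5 dpa differed for 1 probe set, Dr.16054.1.S1_at, which has no gene symbol. In vehicle fins it rose by 6.06 ± 0.25, in TCDD-exposed fins by 2.46 ± 0.27, a tested difference of 3.60 ± 0.36 (limma, adjusted p = 0.0083). All 3 vehicle arrays at 5 dpa (9.88 to 10.70) lay above all 3 TCDD arrays at 5 dpa (5.73 to 7.30), while vehicle arrays at 3 dpa read 4.14 to 4.67 and TCDD arrays at 3 dpa 3.92 to 4.21. The call on the difference was lost without the 5 dpa array B or the 3 dpa array C of vehicle fins, and without both arrays of any 1 letter. Without the TCDD 3 dpa array C the difference kept its call (adjusted p = 0.038), and the TCDD step lost its own (adjusted p = 0.086).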

How the results depend on the processing

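The sizes of the step were the same with and without the replicate block, because A, B and C are paired across both days, and only the errors changed. The 322 calls became 53 with no replicate block (22 higher, 31 lower, all 53 among the 322), 7 with the block on the 6 vehicle arrays, 1 with the block on the 9 vehicle arrays and 2 with no block on 6 arrays. Leaving out 1 array gave 27 to 436 calls. It was 45 and 50 without the 5 dpa arrays A and B, 436 without the 5 dpa array C, and 27, 32 and 29 without the 3 dpa arrays A, B and C. Without both arrays of letter A, B or C it was 14, 6 and 88. Pseudocounts of 16 and 64, quantile normalization, median centring, a level filter and a constant prior gave 240 to 450, within 1.5 times the number reported. Median centring gave 110 higher and 167 lower. The 1 call on the difference between exposures became 2 with a pseudocount of 16, 4 with 64 and 2 after quantile normalization, 0 to 5 without 1 array, and 0 without both arrays of letter A, B or C. The 222 calls on the difference from the earlier step became 64 with no replicate block, 55 to 184 without 1 array (55, 122 and 75 without the 3 dpa arrays A, B and C), and 40, 76 and 74 without both arrays of a letter. Median centring gave 189, 40 higher and 149 lower, against 24 and 198. No named gene changed sign past the threshold. Other than that fewer arrays entered some of these fits, the cause was not tested.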

Other observations

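Some families of housekeeping genes, grouped by name after their values were seen, are described here by their counts, and nothing particular to them follows from those. Over all genes 0.682% rose and 1.98% fell. Of 59 mitochondrial ribosomal protein genes, 10 fell and none rose, and 59 were lower in value at 5 dpa, with a median of -0.32. That is 16.9% called, and without the replicate block none was. Examples are mrpl12, at 8.65 ± 0.13 at 5 dpa and 9.33 ± 0.23 at 3 dpa (-0.68 ± 0.11, limma, adjusted p = 0.018), and mrpl1 (-0.75 ± 0.12, adjusted p = 0.018). Of 41 nucleolar and ribosome assembly genes, 11 fell and none rose (26.8%), with a median of -0.39, and without the block none was called. They include nolc1 (-0.69 ± 0.12, adjusted p = 0.021), nop2 (-0.63 ± 0.14, adjusted p = 0.046) and dkc1, the pseudouridine synthase of small nucleolar particles (-0.71 ± 0.15, adjusted p = 0.039). In the earlier step, which shares the 3 dpa arrays, these medians were -0.35 and -0.71, and in the TCDD step -0.19 and -0.11.

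Smaller families had few calls, all of them falls, beside 1.98% falls over all genes. Of 27 spliceosome genes 5 fell (18.5%), among them lsm6 (-0.60 ± 0.09, adjusted p = 0.013). Of 12 RNA polymerase I and III subunits 3 fell (25%), of 19 mitochondrial import genes 3 (15.8%), led by tomm40l (-0.95 ± 0.13, adjusted p = 0.010), and of 13 tubulins 3 (23.1%), led by tuba1b (-0.99 ± 0.15, adjusted p = 0.011). Asparagine-linked glycosylation and aminoacyl-tRNA synthetase families of 17 genes had 2 falls each (11.8%). Without the block 1 spliceosome, 2 import and 1 synthetase gene were called lower, and none in the polymerase, tubulin and glycosylation families. None of 42 proteasome genes passed. Among vehicle arrays the GAPDH 3′ to 5′ difference was largest on the 3 dpa array C. Without that array no fall was called in the mitochondrial ribosomal, nucleolar, spliceosome, polymerase and glycosylation families. The synthetase, import and tubulin families then had 1 each. This loss is not particular to array C as far as the total shows. Over all probe sets the 322 calls became 29 without it, and 27 and 32 without the 3 dpa arrays A and B. Family counts without array A or B are not given, so these counts cannot tie the falls to array C. Quantile normalization and median centring left 7 and 7 falls of the 10 and 10 and 11 of the 11, with medians negative under both. The part of RNA quality in these falls was not tested.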
